A study of Mus musculus with 18 samples.

Results

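The liver libraries compared here share the nuclear genome of C57BL/6J mice and differ in their mitochondrial DNA (mtDNA), and they were chosen by strain code as the 9 of 18 libraries whose code begins with C. CC is wild-type C57BL/6J, with its own mtDNA (type C). CF and CH are mitochondrial-nuclear exchange (MNX) mice, in which the C57BL/6J nucleus is combined with the mtDNA of FVB/NJ (type F) or of C3H/HeN (type H). All were healthy adult females, and each group had 3 libraries. MNX mice were made by pronuclear transfer and bred in-house, whereas the wild types were bought, so mtDNA type, the MNX procedure and the source of the animals cannot be told apart between CC and the other groups. CF and CH are both MNX. RNA was pooled before libraries were made, so a replicate is a library, and p-values measure the spread between libraries, which may be technical. After pooling, the RNA of all groups was pretreated with a kit that removes some base methylation and restores the ends of fragments. The paper warns that demethylation may cut RNA at random and so favour shorter fragments. The part of this step in the profiles below was not tested.

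The measured RNA is mt-TR, the mitochondrial tRNA for arginine, and the table holds reads of 40 to 69 nt from it. Mitochondrial tRNAs are cut out of long transcripts, receive a CCA tail at their 3′ end, and carry an amino acid to the mitochondrial ribosome. Fragments of tRNAs (tRFs) are classed by where they start and end: 5′ fragments keep the mature first base, 3′ fragments keep the CCA tail, and internal fragments keep neither. The fragments of one tRNA differ only in these ends, so the start, end and length profiles summarise the reads held. They do not show which starts go with which ends, and fragments outside 40 to 69 nt are not covered.

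The mt-TR sequences of the 3 mtDNA types are shown because their only differences are the lengths of a T run and of the A run beside it, which are in capitals.

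mt-TR of type C, 71 nt: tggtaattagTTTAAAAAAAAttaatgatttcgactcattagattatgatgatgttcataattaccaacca
mt-TR of type F, 72 nt: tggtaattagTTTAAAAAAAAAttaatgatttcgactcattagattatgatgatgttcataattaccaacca
mt-TR of type H, 73 nt: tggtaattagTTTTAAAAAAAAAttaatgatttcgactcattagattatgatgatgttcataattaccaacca

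The T run has 3 bases in C and F and 4 in H. The A run has 8 bases in C and 9 in both F and H. The bases that F or H have beyond those of C are called inserted here. Both runs lie between the acceptor stem and the anticodon stem, where a tRNA has its D arm. The C sequence came from the GENCODE M21 transcript of mt-Tr (ENSMUSG00000064361.1, GRCm38/mm10, chrM:9808-9875, plus strand), with CCA added, and those of F and H from the list of fragments that accompanies the study. A read was placed by its start, its first nucleotide (nt) in the sequence of its own type, and by its end, the number of bases between its last base and the mature CCA end. Starts were compared after aligning the 3 types, gaps being placed at the left of each run. Every value is a share of the reads of its own library in the table, so the total amount of mt-TR fragments was not compared.

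Depth was far from equal. The CC libraries held 15335, 17436 and 23805 reads, the CF libraries 1815, 2361 and 189, and the CH libraries 191, 232 and 2318. A single read is 0.529% of CF replicate 3, 0.524% of CH replicate 1 and 0.431% of CH replicate 2, and no reads at all allow a share of up to 1.59%, 1.57% and 1.29% there (3 reads). Depth therefore moved with CC against the MNX groups, and its part in the differences was not tested. Over fragments, libraries within CC and within CF differed by more than counting noise. Within CH the chi-square p was 0.0893 for replicates 1 and 2, 0.0864 for 1 and 3, and 0.0318 for 2 and 3. With so few reads this test can miss a difference, and CH replicates 1 and 2 were kept apart. Intervals below are 95% Wilson intervals and cover counting error only.

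In the plot of starts, ends and lengths per library, 5′ fragments were the larger class in every CC library, reads that keep the CCA tail had the larger mean share in CH, and the CF libraries were split between these patterns. Reads that start at nt 1, the mature 5′ end, made up 56.7%, 66.7% and 86.2% of the CC libraries, 33.8%, 69.8% and 25.9% of the CF libraries, and 29.8%, 20.7% and 39.4% of the CH libraries. All CC libraries lay above all CH libraries, while CF replicate 2 lay inside the CC range and the other CF libraries inside the CH range. The means were 69.9% ± 15.0 (SD, n = 3) in CC, 43.2% ± 23.4 in CF and 29.99% ± 9.37 in CH. In the shallow libraries the intervals ran from 20.2% to 32.6% in CF replicate 3, from 23.8% to 36.7% in CH replicate 1 and from 15.98% to 26.4% in CH replicate 2, none of which reached the lowest CC value.

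**Figure D1:**
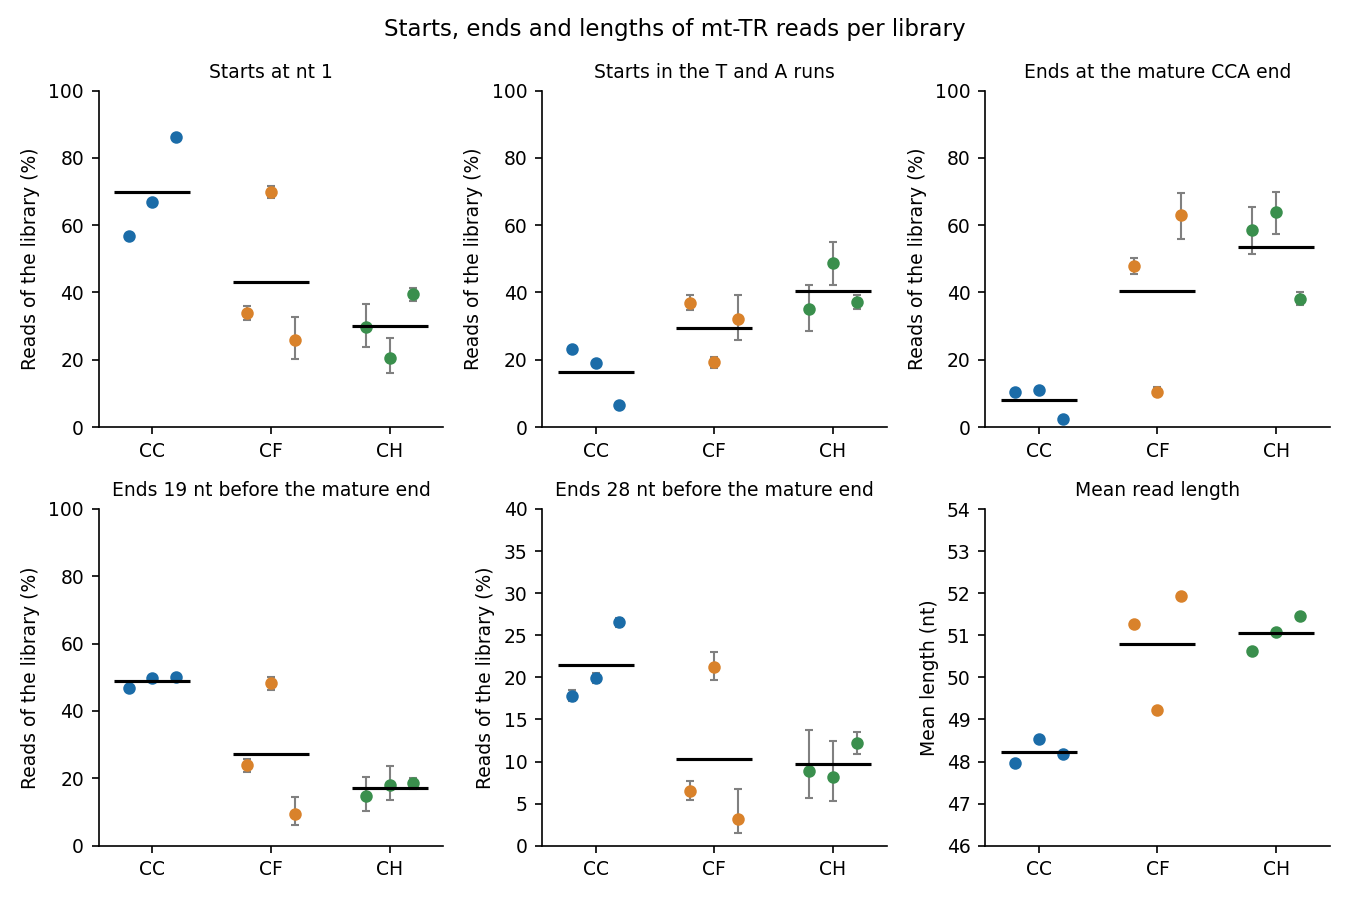
Each point is a library (replicates 1 to 3 from left to right), the horizontal line is the group mean of 3 libraries, and the grey bars are 95% Wilson intervals; the y axes give the share of the library's reads in percent or, in the last panel, the mean length in nt on an axis that does not start at 0. The CC and CH points do not overlap in any panel, and CF replicate 2 lies with CC in the panels of starts and ends.

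At the other end of the molecule the order was the opposite. The share of reads ending at the mature CCA end was 10.6%, 11.1% and 2.31% in CC, 47.9%, 10.5% and 63.0% in CF, and 58.6%, 63.8% and 38.2% in CH. No CC library reached the lowest CH library, and CF replicate 2 was again within the CC range. The means were 7.99% ± 4.92 in CC, 40.4% ± 27.0 in CF and 53.5% ± 13.6 in CH (SD, n = 3). At similar depth, CF replicate 1, CF replicate 2 and CH replicate 3 gave 47.9%, 10.5% and 38.2%, so the CF libraries of over 1000 reads differed from each other by more than either differed from CH replicate 3. These shares are tied to the 5′ shares, since no read of 69 nt or less can hold both mature ends; reads with one or the other end made up 67.2% to 88.9% of every library.

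The starts were compared base by base in the plot of the start profile. Nt 1 was the most frequent start in all 3 groups. The second most frequent was a T of the T run, nt 11 in C and F and its aligned nt 12 in H, at 9.75% ± 5.31 for CC, 11.7% ± 0.53 for CF and 7.77% ± 1.43 for CH. The T run begins at nt 11 in all 3 types, and with gaps at the left nt 11 of H has no partner in C and F. Reads from nt 11 made up 4.19%, 11.2% and 7.64% of the CH libraries, 7.68% ± 3.51 on average. With gaps at the right of the runs, nt 11 of H is instead the partner of nt 11 in C and F. The T run as a whole was the start of 12.2% ± 6.58, 15.9% ± 0.57 and 22.7% ± 3.47 of reads in CC, CF and CH, and the A run of 4.02% ± 2.31, 13.6% ± 8.63 and 17.6% ± 4.19. The CH libraries thus divided their starts at the T run between the 2 bases, where C and F had a single peak.

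**Figure D2:**
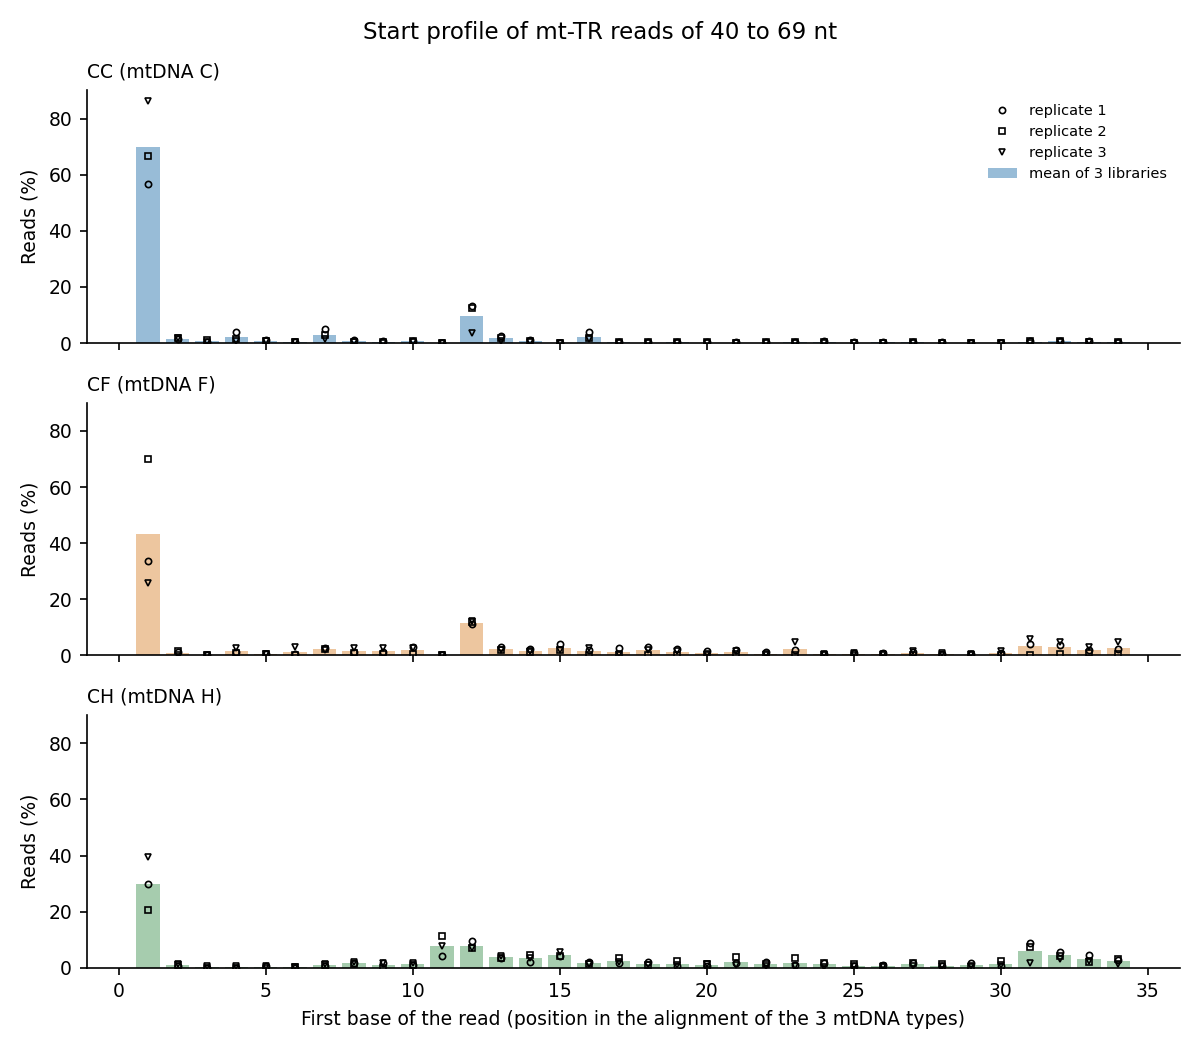
Share of reads (%) by the first base of the read, as the position in the alignment of the 3 mtDNA types, where position 11 exists only in type H and position 15 only in F and H; bars are means of 3 libraries and symbols are the libraries. Nt 1 is the tallest bar in each group (69.9%, 43.2% and 29.99%), and CH has a pair of bars at positions 11 and 12 where CC and CF have 1.

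For both runs together, the shares were 23.2%, 18.97% and 6.58% in CC, 36.9%, 19.2% and 32.3% in CF, and 35.1%, 48.7% and 37.1% in CH. CC lay below CH throughout, and CF replicate 2 lay between the CC libraries. The runs are longer in F and H, so this share covers more bases there than in C. With gaps at the left, positions 11 and 15 of the alignment do not exist in C and held 7.68% and 4.67% of CH reads on average. In CF, where only position 15 exists, it held 2.75%. These positions also enter the start profile. The third most frequent start of CC was nt 7, at the end of the acceptor stem, with 4.96%, 2.79% and 1.34% of reads. In CF it was the first base of the anticodon loop (nt 30), with 3.91%, 0.34% and 5.82%, a start that held 0.54% ± 0.32 of reads in CC (nt 29) and 6.03% ± 3.70 in CH (nt 31). This loop is the part of a tRNA that reads the codon and is a classic place where tRNAs are cut.

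The end profile had the same 3 leading positions in each group, in a different order. Ends 19 nt before the mature end fall after nt 52 in C, 53 in F and 54 in H, inside the T loop; the last base in C is at chrM:9859. They made up 46.9%, 49.9% and 50.1% of the CC libraries, 23.9%, 48.2% and 9.52% of the CF libraries, and 14.7%, 18.1% and 18.5% of the CH libraries. The CC libraries were within a few points of each other and above every CH library, and CF replicate 2 again stood among the CC values. Ends 28 nt before the mature end, between the anticodon stem and the T stem, held 17.8%, 19.9% and 26.5% of reads in CC, 6.45%, 21.3% and 3.17% in CF, and 8.90%, 8.19% and 12.2% in CH. CC and CH did not overlap there either. Of the remaining ends, that 26 nt before the mature end was the fourth in CC (4.42% ± 2.25), and that 1 nt before it, which lacks the last A of the CCA tail, was the fourth in CF (2.45% ± 0.92) and CH (4.01% ± 1.25).

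**Figure D3:**
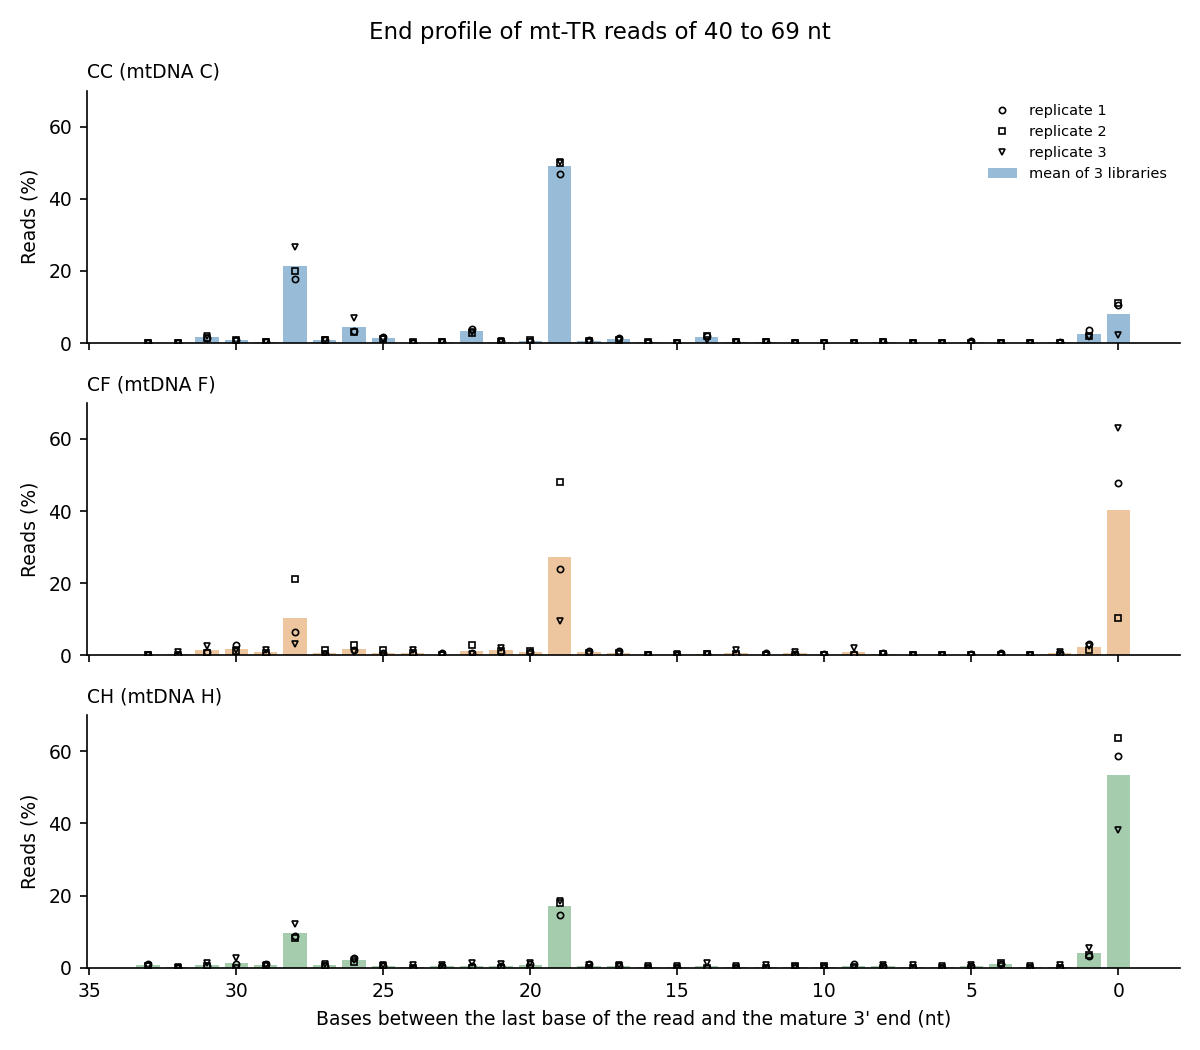
Share of reads (%) by the number of bases (nt) missing from the mature 3′ end, with the mature end at the right; bars are means of 3 libraries and symbols are the libraries. The tallest bar is at 19 nt in CC (49.0%) and at 0 nt in CF (40.4%) and CH (53.5%), and the bar at 28 nt is 21.4% in CC.

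The fragments these ends define are shown because they lead in all groups and because their lengths carry the inserted bases. The capitals mark the T and A runs. The first 3 end 19 nt before the mature end, and the last 3 end 28 nt before it.

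nt 1 to 52, type C, chrM:9808-9859: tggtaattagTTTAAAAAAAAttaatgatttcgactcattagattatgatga
nt 1 to 53, type F: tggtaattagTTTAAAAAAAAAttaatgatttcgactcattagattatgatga
nt 1 to 54, type H: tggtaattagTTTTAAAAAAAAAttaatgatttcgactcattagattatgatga
nt 1 to 43, type C, chrM:9808-9850: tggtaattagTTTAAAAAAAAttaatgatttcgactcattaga
nt 1 to 44, type F: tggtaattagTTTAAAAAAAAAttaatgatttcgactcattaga
nt 1 to 45, type H: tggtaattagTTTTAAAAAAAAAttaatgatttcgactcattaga

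The longer fragment ranked first and the shorter second in mean share in each group. The longer one held 26.6%, 33.2% and 43.0% of reads in CC, 13.9%, 34.2% and 4.23% in CF, as against 9.42%, 9.05% and 9.66% in CH. The shorter one held 15.4%, 18.96% and 25.7% in CC, 6.28%, 20.5% and 3.17% in CF, and 8.90%, 7.76% and 11.4% in CH. Each CH library lay below each CC library for both fragments, and the CF libraries spanned the range from below CH to within CC.

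The pair can also be compared within a library, as the ratio of the longer to the shorter, which does not depend on how many reads start or end elsewhere. That ratio was 1.72, 1.75 and 1.68 in CC, 2.22, 1.66 and 1.33 in CF, and 1.06, 1.17 and 0.845 in CH. CH was below CC and below CF in every library, and here CC and CF overlapped. The intervals of CF replicate 3 (0.483 to 3.68, from 8 and 6 reads), CH replicate 1 (0.552 to 2.03) and CH replicate 2 (0.628 to 2.17) reached across the CC values, whereas that of the deeper CH replicate 3 ran from 0.708 to 1.01. On the log2 scale the difference was 0.76 between CC and CH, 0.75 between CF and CH and 0.01 between CC and CF. The exact three-group permutation test of this ratio, which was chosen after its values were seen, gave p = 0.0321 over 1680 arrangements and an adjusted p of 0.0786 together with the 9 other three-group tests. CC against CH and CF against CH each gave p = 0.1 in an exact permutation test, the smallest that 3 against 3 allow.

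The length profile of mt-TR reads was the only one of 9 measures whose three-group test passed after adjustment. A fragment that spans the runs is longer in F and H by its sequence alone. Identical starts and ends would thus still separate the lengths of the types, so a pass does not show a difference in cutting. The lengths of F and H reads include the inserted bases, which the deposited rows appear to leave out; that reading is an inference from the match of every row to the mt-TR of its own type. The most frequent length was 52 nt in CC (26.9%, 33.5% and 43.0% of reads), 53 nt in CF (16.03%, 34.6% and 5.82%) and 45 nt in CH (10.99%, 9.05% and 12.6%), where 54 nt followed closely (9.42%, 10.8% and 11.4%). The second was 43 nt in CC (21.4% ± 4.33) and 44 nt in CF (11.3% ± 8.59). The third was 42 nt in CC (9.89% ± 4.91) and 43 nt in CF (10.8% ± 0.74) and CH (9.34% ± 2.04). The first and second peaks match the lengths of the fragments printed above. At the third, several fragments share a length: in CH, a 43 nt read from the anticodon loop to the CCA end held 7.85%, 6.90% and 1.42% of reads, and a 43 nt read spanning nt 12 to 54 held 2.62%, 1.72% and 2.80%.

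When the inserted bases of F and H were taken out of the length, the 3 groups had the same 3 leading lengths, 52, 43 and 42 nt. The share at 52 nt was then 34.5% ± 8.09 in CC, 18.2% ± 15.0 in CF and 10.7% ± 0.69 in CH, at 43 nt 21.4% ± 4.33, 13.6% ± 6.60 and 15.6% ± 1.94, and at 42 nt 9.89% ± 4.91, 10.6% ± 1.38 and 12.02% ± 1.59. The exact three-group permutation test of the whole length profile gave p = 0.00357, the smallest its 1680 arrangements can give, and an adjusted p of 0.0321 by the Benjamini-Hochberg method over 9 tests. With inserted bases left out, p was 0.0821 and the adjusted p 0.124 in the same exact permutation test, so the profile passed the threshold only with inserted bases counted. The mean length was 48.0, 48.5 and 48.2 nt in CC, 51.3, 49.2 and 51.9 nt in CF, and 50.6, 51.1 and 51.5 nt in CH, with CC below all other libraries. Without inserted bases the means were 48.2 ± 0.29, 50.1 ± 1.60 and 49.96 ± 0.29 nt (SD, n = 3). CC and CF then overlapped, the highest CC library being at 48.5 nt and the lowest CF library at 48.3 nt.

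**Figure D4:**
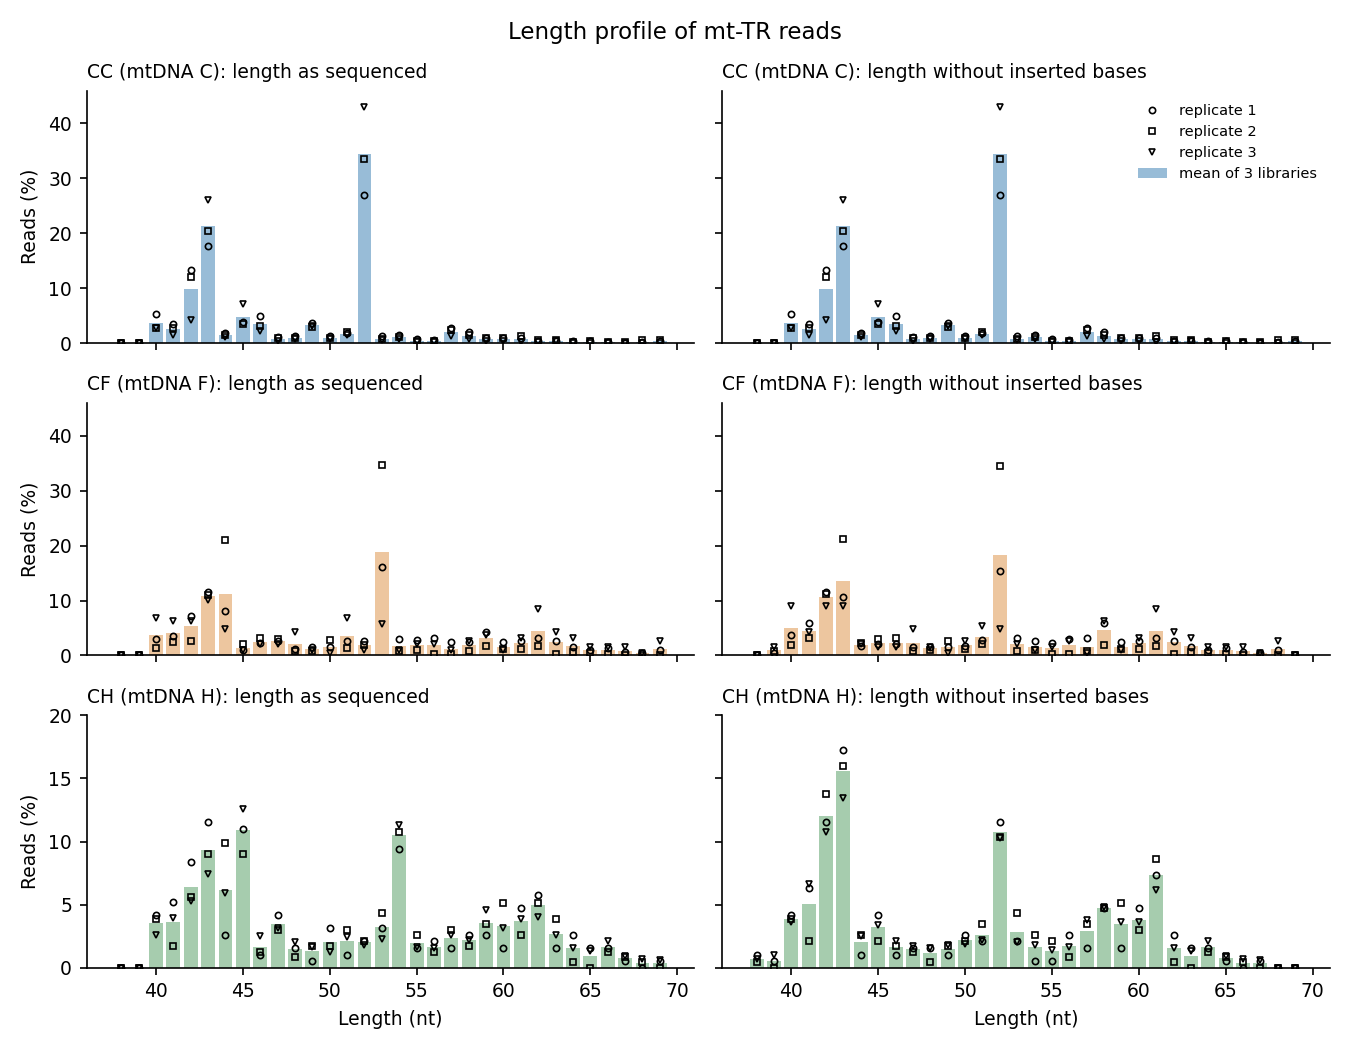
Share of reads (%) by length in nt as sequenced (left) and without the bases inserted in F and H (right); bars are means of 3 libraries, symbols are the libraries, and the bottom row has a shorter y axis. The peaks at 52 nt in CC, 53 nt in CF and 54 nt in CH on the left all stand at 52 nt on the right.

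The other 8 three-group tests did not pass after adjustment. Unadjusted exact permutation p-values were 0.0321 for starts in the T and A runs and for mean length, 0.0393 for the start profile, 0.0679 for ends 19 nt before the mature end, 0.0786 for the end profile, 0.0893 for starts at nt 1, 0.0964 for the CCA end and 0.161 for ends 28 nt before it. Adjusted values ran from 0.0884 to 0.161. Without CF replicate 2 each of these 8 fell to between 0.0161 and 0.0429 after adjustment, and the end 19 nt before the mature end also passed without CF replicate 3 (0.0321). The length profile lost its call without any one CH library (adjusted p = 0.0643 each).

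Pairs of groups were compared for 6 measures, with 18 exact permutation tests in all. CC and CH did not overlap in any of the 6, with differences (CC minus CH) of 39.9 points for nt 1, -24.1 for the runs, -45.5 for the CCA end, 31.9 and 11.7 for the ends 19 and 28 nt before it, and -2.83 nt in mean length. Each exact permutation test gave p = 0.1, the smallest 3 against 3 allow, and an adjusted p of 0.257. CC and CF, which uses the same CC libraries, differed by 26.7, -13.2, -32.5, 21.8 and 11.1 points and by -2.58 nt, and only the mean length did not overlap (exact permutation p = 0.1). Without inserted bases the mean length overlapped too, with CC libraries up to 48.5 nt and CF libraries from 48.3 nt. CF and CH, both MNX, overlapped in all 6, with differences (CF minus CH) of 13.2, -10.8, -13.1, 10.1 and 0.542 points and -0.244 nt, and exact permutation p from 0.2 to 1. Apart from the runs, those signs changed without CF replicate 2.

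Distances between whole profiles put numbers on the spread within groups. Counting error adds to these distances, and adds more in shallow libraries, so they do not rank groups of unequal depth by spread. The total variation distance is the share of reads that would have to move to turn one profile into another. For ends it averaged 11.5% among CC libraries, 19.99% among CH and 45.7% among CF, against 54.02% between CC and CH, 42.4% between CC and CF and 30.9% between CF and CH. The CF libraries were thus farther from each other than from the CH libraries on average, and the nearest CC and CF libraries were only 6.01% apart. For lengths, the smallest distance between a CC and a CF library was 46.8% and between a CC and a CH library 46.2%. Between CF and CH libraries it averaged 37.04% (26.4% to 53.1%), and among CF libraries 38.1%, so for F against H the length profiles were no farther apart than libraries of CF. The largest length distance within a group was 27.9% in CC, 23.3% in CH and 52.2% in CF. That of CH was between the libraries of 191 and 232 reads, and the part of counting error in it was not separated. Inserted bases enter the length distances between types, since a fragment that spans the runs is longer in F and H at the same start and end. CC replicate 2 and CF replicate 2, which were 6.01% apart for ends, were 60.7% apart for lengths.

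The profiles were also compared among reads that share an end. Of reads from nt 1, 47.0%, 49.7% and 49.9% ended 19 nt before the mature end in CC, 41.2%, 48.9% and 16.3% in CF, and 31.6%, 43.8% and 24.5% in CH. Of reads with the CCA end, 47.4% ± 2.37 began in the T and A runs in CC, 51.1% ± 8.84 in CF and 53.0% ± 8.03 in CH. Reads that start in the anticodon loop were 21.0% ± 1.42, 24.4% ± 4.02 and 26.8% ± 8.18 of the CCA-ended reads. That share covers loop starts only up to nt 32 in C, 33 in F and 34 in H. Later loop starts, up to nt 35, 36 and 37, could not be seen, because such CCA-ended reads are shorter than 40 nt. None of 5 such shares passed an exact three-group permutation test (adjusted p from 0.5 to 0.582). The most frequent start of CCA-ended reads was the first A of the A run in CC (nt 14), at 14.9%, 9.002% and 19.4%, whereas the first A held 7.94%, 13.3% and 3.36% in CF (nt 14) and 4.46%, 5.41% and 9.04% in CH (nt 15). In CF it was the T at nt 11 (11.005% ± 5.14) and in CH the first base of the anticodon loop (13.4%, 10.8% and 3.73%). That lead came from the shallow CH replicates 1 and 2, and in CH replicate 3 nt 12 (9.27%) and nt 15 (9.04%) were above it.

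Single fragments were then tested with edgeR's quasi-likelihood test, in a fit to all 18 libraries with the library's reads in the table as its size. Fragments were matched across types by aligned start and end, and 67 of the 450 that could be listed in all types passed the filter on low counts. That filter takes the share of reads over all 18 libraries, so a fragment scarce in CC can pass through groups where it is high. Counts of calls in 1 direction therefore depend in part on which fragments passed. CC against CH gave 17 fragments at an adjusted p under 0.05, which is 25.4% of those tested. A single one was higher in CC (1.49%) and 16 were lower (23.9%), and of all tested fragments 42 (62.7%) had libraries that did not overlap between the groups. Of the 28 tested fragments with the CCA end, 15 were lower in CC and none higher. Of the 22 fragments from nt 1, 0 were called in edgeR (1 at an unadjusted p under 0.05), 7 with trimmed-mean (TMM) scaling and 14 in DESeq2, all of these higher in CC. The CCA-ended calls lower in CC were 9 with TMM and 1 in DESeq2, which also called 1 CCA-ended fragment higher.

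**Figure D5:**
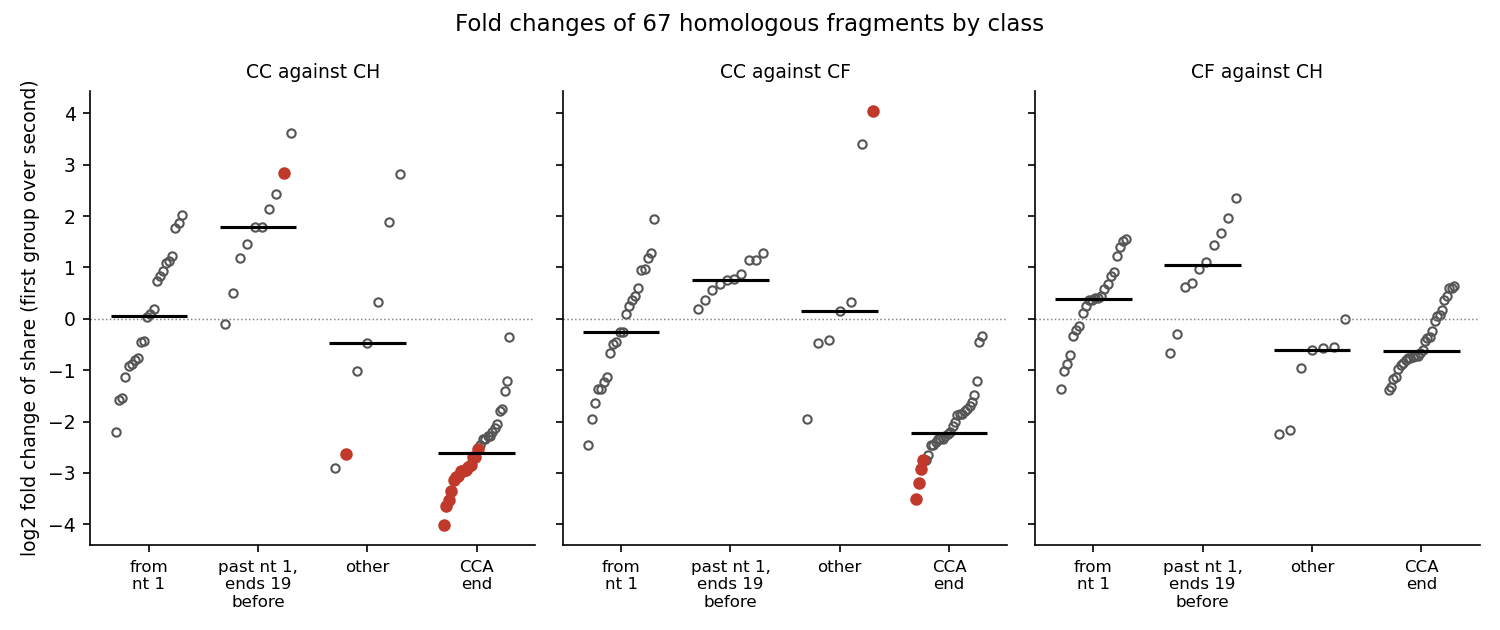
The log2 fold change of a fragment's share (first group over second) in edgeR, by class of fragment and comparison; filled red points have an adjusted p under 0.05, open points do not, and lines are class medians. In CC against CH the filled points are 15 of the 28 CCA-ended fragments, 1 other fragment lower in CC and 1 higher; CF against CH has none.

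The CCA-ended fragments with the largest changes start in the A run or in and beside the anticodon loop. They read the same in all 3 mtDNA types and are printed with the anticodon, or the part of the A run that they keep, in capitals.

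from the first base of the anticodon loop, nt 29 in C, 30 in F, 31 in H (chrM:9836-9875 in C, then CCA): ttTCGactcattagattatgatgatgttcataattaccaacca
from the A run, nt 19 in C, 20 in F, 21 in H (chrM:9826-9875 in C, then CCA): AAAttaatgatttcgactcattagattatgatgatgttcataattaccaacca

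The fragment from the A run had 32, 22 and 8 reads in CC (0.21%, 0.13% and 0.03%) and 3, 9 and 22 in CH (1.57%, 3.88% and 0.95%). All CH shares were above all CC shares, and its log2 fold change, CC over CH, was -4.01 ± 0.99 (SE; edgeR adjusted p = 0.0122). The fragment from the anticodon loop held 0.57%, 0.67% and 0.11% of CC reads and 7.85%, 6.90% and 1.42% of CH reads, the third highest mean share of that group. Its log2 fold change was -3.52 ± 1.01 (edgeR adjusted p = 0.0122). A fragment that begins 1 base before the loop, in the last pair of the anticodon stem, had shares of 0.12%, 0.14% and 0.03% in CC and 0.52%, 2.59% and 0.78% in CH, and a log2 fold change of -3.65 ± 0.96 (edgeR adjusted p = 0.0122). This fragment and that from the A run, at most 0.14% and 0.21% of a CC library, passed the low-count filter only through libraries outside CC. The adjusted p of each of the 3 passed 0.05 without CC replicate 3 (0.0686) or CH replicate 2 (0.0564), and that from the loop also without CH replicate 1 (0.0553). In DESeq2 the fragment from the A run kept its call (adjusted p = 0.0143), and those from the loop (0.0980) and the base before it (0.0685) did not. Libraries of at least 1000 reads leave CH with replicate 3 alone, so that setting cannot test these calls.

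The fragment that was higher in CC runs from nt 7 to the end in the T loop, 19 nt before the CCA terminus. It had 479, 335 and 239 reads in CC (3.12%, 1.92% and 1.004%), and 0, 0 and 10 reads in CH, the last being 0.43%. Since no reads allow up to 1.57% and 1.29% in CH replicates 1 and 2, those libraries do not separate from CC replicate 3 at this depth. The log2 fold change was 2.84 ± 0.99 (edgeR adjusted p = 0.0281), and the call was lost without CC replicate 1 (0.0908), CC replicate 3 (0.0686), CH replicate 1 (0.0887) or CH replicate 2 (0.101). In CF the same fragment held 1.05%, 1.44% and 0.53%.

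How many fragments were called depended on single libraries, here and for CC against CF below. The low-count filter was rerun for each set of libraries, so the number tested can differ from 67. The 17 calls of CC against CH became 0 without CC replicate 3 (22 at an unadjusted p under 0.05 in edgeR), 0 without CH replicate 2 (26) and 4 without CH replicate 1. They also depended on scaling. With TMM scaling 25 were called, 16 higher and 9 lower in CC, and with DESeq2 29, of which 28 were higher and 1 lower. The median of all tested fragments moved with it, from -1.02 on the log2 scale with table totals to 0.40 with TMM and 1.87 with DESeq2. Relative to that median the classes kept their order under these 3 scalings: CCA-ended fragments lay at -1.58, -1.67 and -2.11, fragments from nt 1 at 1.08, 0.93 and 0.95, and fragments starting past nt 1 and ending 19 nt before the mature end at 2.81, 2.70 and 2.42. A change of scaling mainly shifts all fragments together, and subtracting the median takes that shift out. The kept order is thus largely built in, here and for CC against CF below, and does not show that the calls are robust. The nt 1 class lay at 0.53 without CH replicate 2, at 1.97 without CH replicate 3 and at -0.15 with libraries of at least 1000 reads, where the CCA-ended class lay at -1.50; without CH replicate 3 the latter was at -2.77 and the class past nt 1 at 6.91.

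CC against CF gave 5 called fragments in edgeR (7.46% of those tested), 4 lower in CC (5.97%), all CCA-ended, and 1 higher (1.49%); libraries did not overlap in 18 (26.9%). The fragment from the A run printed above was among them, with 1.76%, 0.30% and 1.59% in CF and a log2 fold change of -3.20 ± 0.94 (edgeR adjusted p = 0.0325). It had 32, 7 and 3 reads in CF. All 3 CF shares were above the CC shares, but that of CF replicate 2 (0.30%) rests on 7 reads. At this depth it is not separated from CC replicate 1 (0.21%). As stated above, this fragment passed the low-count filter only through libraries outside CC. The fragment higher in CC starts at the first A of the A run in C (nt 14) and lacks the last A of the CCA tail, with 182, 83 and 158 reads in CC and 1, 1 and 0 in CF. The ratio of the groups' pooled shares was 16.3 (exact interval 4.49 to 135, counting error only), and its log2 fold change was 4.04 ± 1.13 (edgeR adjusted p = 0.0325). With gaps at the left its partner in F starts at the second A, and with gaps at the right of the runs no fragment was called in CC against CF (23 at an unadjusted p under 0.05 in edgeR). The count was 0 in edgeR without CC replicate 1, CC replicate 2, CF replicate 1 or CF replicate 3 (22, 25, 14 and 19 at an unadjusted p under 0.05), 2 without CC replicate 3, and 29 without CF replicate 2, of which 4 were higher and 25 lower in CC. With TMM 3 fragments were called and with DESeq2 5, all higher in CC. Class medians, relative to the median of all, were -1.08, -1.10 and -1.33 for CCA-ended fragments and 0.89, 0.69 and 0.77 for those from nt 1 with table totals, TMM and DESeq2. The median of the nt 1 class relative to all was under those values without CF replicate 1 (-0.004), CF replicate 2 (0.58), CF replicate 3 (0.19), CC replicate 3 (0.27) or CC replicate 2 (0.34) and with libraries of at least 1000 reads (0.08). That of the CCA-ended class was -1.80 without CC replicate 2 and -1.70 without CF replicate 2.

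CF against CH, the comparison between MNX groups, gave 0 called fragments in edgeR (0% of 67), with 0 at an unadjusted p under 0.05, 2 with TMM and 3 in DESeq2, where none passed adjustment either. Libraries did not overlap in 4 fragments (5.97%). Only 2 CF libraries and 1 CH library held over 1000 reads, and the spread among CF libraries was large, so an absent call does not show that F and H mtDNA give the same fragments. The class medians, CF over CH, were -0.64 for CCA-ended fragments, 0.38 for those from nt 1 and 1.04 for those past nt 1 that end 19 nt before the mature end, beside -0.13 for all. Without CF replicate 2 the first was 0.01, the second -0.12 and the third 0.31, beside -0.02 for all, and with libraries of at least 1000 reads the nt 1 median was -0.41.

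Read over the whole set, 451 fragments had reads in these 9 libraries: 364 in CC, 211 in CF and 234 in CH. In all 3 libraries of a group there were 169, 54 and 38, where the shallowest libraries held 15335, 189 and 191 reads. The third fragment in mean share was, in CC and CF, the one from the T run (nt 11) to 19 nt before the mature end, at 11.4%, 10.6% and 3.13% in CC and 7.16%, 9.19% and 2.65% in CF. In CH, from nt 12, it was the twelfth, at 2.62%, 1.72% and 2.80%. The match to nt 12 of H depends on where the gap stands. With gaps at the right of the runs, an alternative added after seeing the data, nt 11 of H is the partner, and the fragment held 1.05%, 6.47% and 3.58% of CH reads and was the sixth. CC and CH did not overlap with gaps at the left, and CC replicate 3 (3.13%) lay below CH replicates 2 and 3 with gaps at the right.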

How the data were processed

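The authors deposited a table of read counts, with a row for each distinct sequence and a column for each library. Per their methods and notes, UMIs were extracted and collapsed (UMI-tools 1.1.6), adapters trimmed (cutadapt 5.0), and reads mapped without gaps or mismatches to the mt-TR of their own mtDNA type and screened against mm10 (Bowtie 1.3.1). Of 679 sequences, 540 had reads in these libraries (63682 of 121943 reads). Rows appeared to be written without inserted bases, an inference from the match of every row to its own type once they were restored, and reads were matched as 519 homologous fragments. The libraries, measures and lists were chosen with earlier results of these data known. Fragments named were the 3 of highest mean share per group, those from nt 1 ending 19 and 28 nt before the mature end, and per comparison the 3 largest called changes without overlap; the nt 7 fragment and the ratio were added after values were seen. Two-sided exact permutation tests used Python 3.11.15 with scipy 1.17.1 and Benjamini-Hochberg adjustment. Fragments were tested with edgeR 4.0.16 (R 4.3.3) and, as an alternative, DESeq2 1.42.0. Other alternatives were left-out libraries, libraries of at least 1000 reads, gap placement, the replicate block and merged CH replicates.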

Additional observations from a re-analysis of the deposited data

How the results depend on the processing

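Of 151 alternative values of the three-group tests, 132 stayed on the same side of an adjusted p of 0.05. Only the length profile had passed as reported, so for the other tests this means that they again did not pass. In 11 alternatives a test passed that had not passed before. In 8 a pass was lost, each time that of the length profile, so the tally does not show that its result is robust. The length profile did not pass with libraries of at least 1000 reads (0.3), with rows as deposited or without inserted bases (0.124 each), or with CH replicates 1 and 2 merged, an alternative added after seeing the data (0.0643). Replicate numbers did not pair the libraries (3 of 9 same-numbered pairs correlated above 0.1, range -0.64 to 0.48). Under the replicate block the adjusted p of the length profile was 0.200. That block allows fewer arrangements than the 1680 of the main test, so a pass is harder to reach. With it edgeR called 23, 6 and 0 of 67 fragments in CC against CH, CC against CF and CF against CH. Leaving out each library gave adjusted p from 0.0429 to 0.229 for nt 1, 0.0321 to 0.220 for the runs, 0.0402 to 0.220 for the CCA end, 0.0321 to 0.220 and 0.0161 to 0.329 for ends 19 and 28 nt before it, 0.0241 to 0.220 for mean length, 0.0214 to 0.220, 0.0321 to 0.220 and 0.0161 to 0.0643 for the start, end and length profiles, and 0.0179 to 0.214 for the ratio.

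Differences between pairs kept their sign in 233 of 243 alternatives. Those of CF minus CH changed without CF replicate 2 for nt 1 (-0.110), the CCA end (1.88), ends 19 and 28 nt before it (-0.400 and -4.94) and mean length (0.547 nt); the end 28 nt before also without CH replicate 2 (-0.239), among fragments listable in all types (-0.549) and with CH merged (-0.0438); mean length also with rows as deposited (0.122) and without inserted bases (0.101). Over left-out libraries these ran from -0.110 to 21.8, -24.3 to 1.88, -0.400 to 18.9 and -4.94 to 4.10 points and from -0.809 to 0.547 nt. Only TMM, DESeq2 and the replicate block keep the 67 tested fragments. The other settings filter anew or not at all, so their counts have another base and cannot be set against the main calls. CC against CH gave 29 of 67 calls in DESeq2. In edgeR it gave 10 without a filter on low counts and 0 to 17 without 1 library. CC against CF gave 3 of 67 with TMM. It gave 0 with no filter or with gaps at the right (55 and 23 at an unadjusted p under 0.05 in edgeR). A fit to the 9 libraries gave 14, all fragments gave 9, and leaving out 1 library gave 0 to 29. CF against CH gave 3 over all fragments, which include those that 1 type cannot list, and 0 otherwise in edgeR. Depth limits CF replicate 3 and CH replicates 1 and 2, where 1 read is at least 0.431% of the library. Except where the alternative itself removes reads or fragments, the cause was not tested.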
